A study of Mus musculus with 4 samples.

Results

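The expression of 10 genes that carry copper and zinc through the liver cell was followed in livers without SREBP1c (KO) and in wild-type livers (WT). These genes were chosen by gene symbol from the 23920 genes of the deposited table: Slc31a1, Atox1, Ccs, Atp7b and Cp for copper, and Mt1, Mt2, Slc30a1, Slc30a10 and Slc39a14 for zinc and the metallothioneins. Atox1, Mt1 and Mt2 entered because of their KO and WT values in these same libraries, so the KO and WT values of the 10 genes are given as a description, without a test. All 10 were found, and all 10 had a mean of at least 1 FPKM (fragment counts scaled for transcript length and library depth), a level reached by 9820 genes.

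Male C57BL/6 mice of 12 weeks had fasted for 24 h and eaten again for 12 h before the liver was taken, in both groups. The KO group (2 libraries) carries the genotype SREBP1c KO, and the WT group (2 libraries), the genotype SREBP1c WT. The sources used here do not give the allele, whether the WT mice were littermates or whether each library is another animal, so the spread between libraries may be technical. SREBP1c, encoded by Srebf1, is the insulin-driven activator of fatty acid synthesis genes.

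Hepatocytes take up copper through CTR1, the product of Slc31a1, and hand it to chaperones. ATOX1 brings it to the pump ATP7B, which loads ceruloplasmin (Cp) for secretion or sends copper to bile, and CCS brings it to superoxide dismutase SOD1. Metallothioneins are small cysteine-rich proteins that bind zinc and copper, and in liver their genes are known to respond to metals, glucocorticoids and inflammatory signals. ZnT proteins (Slc30) export zinc from the cytosol and ZIP proteins (Slc39) import it.

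Srebf1 had 8.63 and 6.97 FPKM in the KO libraries, against 63.7 and 58.2 FPKM in the WT libraries. Steps between low values implied depths of about 20600000 to 23000000 fragments per library, with KO replicate 2 and WT replicate 2 the shallower library of each group. The 8 hepatocyte markers summed to 14518 and 14378 FPKM in KO, against 14204 and 16064 FPKM in WT. They differed in direction: Cps1, an enzyme of the urea cycle, had 362 and 399.6 FPKM in KO, against 619.5 and 621 FPKM in WT (limma adjusted p = 0.246), and Apoa1 was also lower in both KO libraries. Hnf4a and Cyp2e1 were higher in both KO libraries, and Ttr, Apob, Ass1 and Tat overlapped. In whole liver, fewer cells of a type and less RNA per cell cannot be told apart. Log2 differences below are KO minus WT of log2(FPKM + 1).

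Over all genes, limma, which tests a linear model for every gene with a shared estimate of the spread, called 7 of 9820 genes at an adjusted p under 0.05 (0.0713%), 1 higher (0.0102%) and 6 lower (0.0611%) in KO. An unadjusted p under 0.05 was found for 7.75% of all genes. The 10 genes were part of this fit, which supplied their SE, and no p or call is given for them. The counts that follow restate values that chose the genes, and nothing is read from them. Both KO values lay above both WT values for 2 of the 10 (Mt1, Mt2) and for 22.4% of all genes. Both lay below for 2 (Atox1, Atp7b) and for 16.4% of all genes. The median log2 difference was −0.01 over the 10 genes and 0.02 over all genes.

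**Figure D1:**
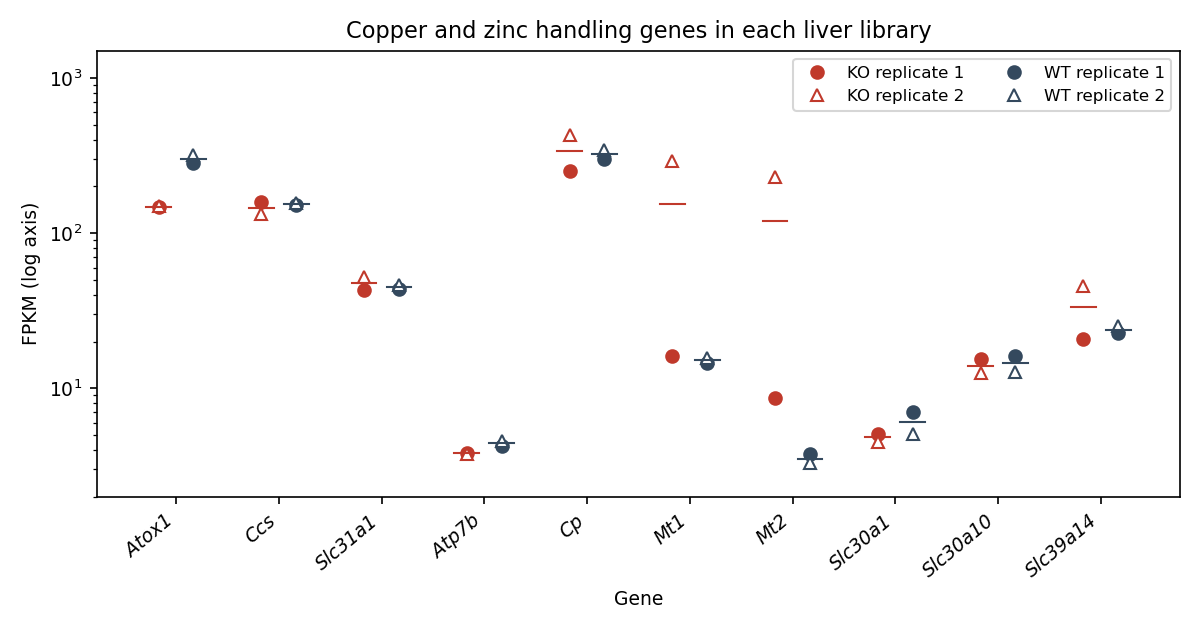
FPKM (log axis) of the 10 genes in each library, KO in red to the left of WT in dark blue, with circles for replicate 1, triangles for replicate 2 and bars for group means. Atox1 lies lower in both KO libraries, while Mt1 and Mt2 are far higher in KO replicate 2 (292 and 230.3 FPKM) than in the other 3 libraries.

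Of the 5 copper genes the chaperone Atox1 differed most between the groups, at 0.486 and 0.496 times the WT mean in the KO libraries. The importer, the other chaperone and ceruloplasmin overlapped between the groups.

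Atox1 (NM_009720, chromosome 11, 55446637 to 55461208, GRCm38.p6) had 147 and 149 FPKM in the KO libraries, against 285 and 318 FPKM in the WT libraries. The gap between the groups was wider than that within either group, which restates the values that chose the gene. Its mean was 148 ± 1.98 FPKM in KO and 301 ± 22.8 FPKM in WT (SD, n = 2 each), 2.04-fold lower in KO, with a log2 difference of −1.02 (SE 0.12). From the WT mean, KO replicate 1 differed by −1.03 (rank 27 from the bottom of 9820 genes) and KO replicate 2 by −1.01 (rank 65).

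Within a library, the level of Atox1 relative to other genes of its pathway was lower in KO. Those genes differed less between the groups, so the ratios restate the Atox1 values that chose it and are no further support. FPKM is scaled by length, so genes can be set side by side, but only roughly. FPKM also depend on how fragments were assigned, which is not given. The ratio of Atox1 to Ccs was 0.929 and 1.12 in KO, against 1.88 and 2.04 in WT. Relative to Slc31a1 it was 3.42 and 2.87 in KO, against 6.54 and 6.85 in WT, and relative to Atp7b 38.2 and 39.5 in KO, against 66.9 and 69.2 in WT. By FPKM, Atox1 was thus the higher chaperone transcript in WT livers, and in KO livers the 2 chaperones were at similar values.

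Slc31a1, the copper importer (chromosome 4), had 42.9 and 52.0 FPKM in KO, against 43.6 and 46.4 FPKM in WT. The WT values lay inside the KO range. Ccs, the chaperone for SOD1 (chromosome 19), had 158 and 133 FPKM in KO, against 152 and 155 FPKM in WT, again with WT inside the KO range. The log2 differences were 0.07 (SE 0.13) for Slc31a1 and −0.08 (SE 0.13) for Ccs.

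Atp7b, the copper pump (chromosome 8), had 3.84 and 3.78 FPKM in KO, against 4.26 and 4.59 FPKM in WT. Both KO values were below both WT values, by a small amount: the log2 difference was −0.17 (SE 0.10) and the KO mean was 0.861 times the WT mean. Cp, the copper-carrying ferroxidase of plasma (chromosome 3), had 250.2 and 429 FPKM in KO, against 300.05 and 343 FPKM in WT. The KO libraries lay on either side of WT, at −0.36 and 0.42 from the WT mean. Of its 3 transcripts NM_007752 held 92.4% to 93.2% of the summed FPKM in KO and 91.5% to 91.9% in WT, so the spread of the gene is that of this transcript.

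**Figure D2:**
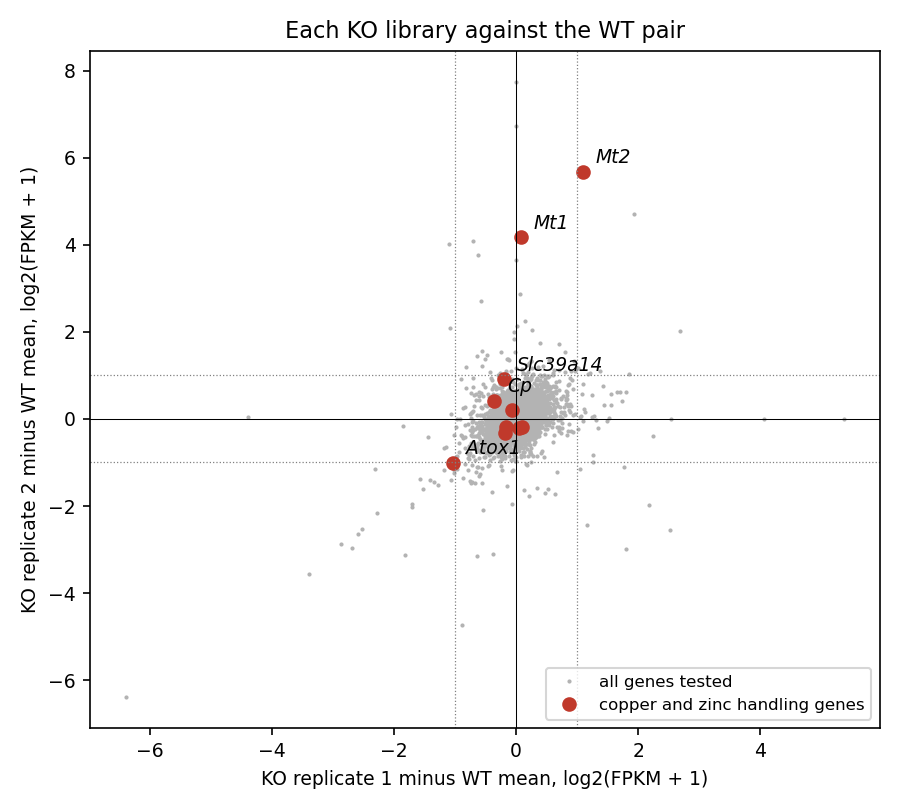
Difference of KO replicate 1 (x axis) and KO replicate 2 (y axis) from the WT mean in log2(FPKM + 1), for all 9820 genes in grey and the 10 genes in red, with dotted lines at a 2-fold difference. Atox1 lies near −1 on both axes, Mt1 near 0 on x and at 4.18 on y, and Mt2 at 1.10 on x and 5.68 on y.

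The metallothionein genes were high in 1 KO library. Mt1 and Mt2 lie 5.32 kb apart on chromosome 8 (Mt1 at 94178883 to 94180327, Mt2 at 94172618 to 94173567, GRCm38.p6). Their coding sequences are alike, and the sources used here do not say how fragments that fit both genes were assigned, so the division between them is uncertain. The windows from 250 bases before to 50 bases after a RefSeq start (GRCm38.p6, plus strand) are shown because metallothionein genes are the classical targets of the zinc sensor MTF-1, which binds metal response elements. The Mt1 window is set at a start that lies inside the gene span given above. Capitals mark matches to the element's core, TGCACNC or TGCGCNC, on either strand.

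Mt1, chr8:94178839-94179138: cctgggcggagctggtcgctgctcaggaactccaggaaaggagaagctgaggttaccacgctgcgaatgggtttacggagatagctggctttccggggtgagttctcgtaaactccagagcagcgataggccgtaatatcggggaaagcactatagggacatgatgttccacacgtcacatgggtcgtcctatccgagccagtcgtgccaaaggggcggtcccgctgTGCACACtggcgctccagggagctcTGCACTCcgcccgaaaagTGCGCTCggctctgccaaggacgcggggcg
Mt2, chr8:94172368-94172667: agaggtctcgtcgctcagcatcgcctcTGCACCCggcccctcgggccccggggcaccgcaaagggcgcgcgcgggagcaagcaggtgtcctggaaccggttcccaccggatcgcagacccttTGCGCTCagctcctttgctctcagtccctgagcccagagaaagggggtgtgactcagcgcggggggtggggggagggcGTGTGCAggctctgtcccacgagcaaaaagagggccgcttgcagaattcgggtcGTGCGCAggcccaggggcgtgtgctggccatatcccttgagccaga

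The Mt1 window held 3 matches and the Mt2 window 4. Of 32851 promoter windows of the same length, 25.7% held at least 1 match and 1.31% held 3 or more. Windows were found for 8 of the 10 genes. That of Slc30a1 held 2 matches, that of Slc30a10 2 (overlapping matches counted as 1), that of Atp7b 1, and those of Atox1, Slc31a1 and Cp held 0. A match is a run of letters and says nothing of binding in these livers.

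Mt1 (NM_013602) had 16.1 and 292 FPKM in KO, against 14.6 and 15.7 FPKM in WT. KO replicate 1 was 1.06 times the WT mean, and KO replicate 2 was 19.2 times the WT mean. The group means were 154 ± 195 FPKM in KO and 15.2 ± 0.772 FPKM in WT (SD, n = 2 each), so the KO spread exceeds the KO mean. The log2 difference of 2.13 had an SE of 1.19.

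Mt2 (NM_008630) had 8.67 and 230.3 FPKM in KO, against 3.74 and 3.29 FPKM in WT. Here both KO libraries were above WT, KO replicate 1 at 2.47 times and KO replicate 2 at 65.5 times the WT mean. At the implied depths, and with the length of the matching GENCODE transcript, these values correspond to about 102 and 2430 fragments in KO and about 43 and 35 in WT. The log2 difference of 3.39 had an SE of 1.33.

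The 2 metallothioneins differed in KO replicate 1. It differed from the WT mean by 0.08 for Mt1 and 1.10 for Mt2, while WT replicate 2 differed from WT replicate 1 by 0.10 for Mt1 and −0.14 for Mt2. The ratio of Mt1 to Mt2 was 1.86 and 1.27 in the KO libraries, against 3.91 and 4.78 in WT. The sum of both genes was 24.8 and 523 FPKM in KO, against 18.4 and 19.0 FPKM in WT.

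In KO replicate 1, 73 of 9820 genes (0.743%) were at least 2-fold from the WT mean, 0.438% higher, with Mt2, and 0.305% lower, with Atox1. In KO replicate 2 they were 133 (1.35%), 0.692% higher, with Mt1 and Mt2, and 0.662% lower, with Atox1. By rank over all genes Mt2 was the third and Mt1 the fifth highest difference in KO replicate 2, and ranks 36 and 3465 in KO replicate 1. These genes were chosen for such values, so the counts are a description.

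Zinc transporters showed smaller differences. Slc30a1, the plasma membrane zinc exporter ZnT1 and a known MTF-1 target (chromosome 1), had 5.10 and 4.53 FPKM in KO, against 6.97 and 5.09 FPKM in WT. KO and WT overlapped, and in KO replicate 2, where the metallothioneins were high, it had its lowest value. Slc30a10, of the same family and known for manganese export, had 15.3 and 12.6 FPKM in KO, against 16.1 and 12.7 FPKM in WT. The log2 differences were −0.26 (SE 0.16) for Slc30a1 and −0.04 (SE 0.16) for Slc30a10.

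Slc39a14, which encodes ZIP14, an importer of zinc, manganese and iron that IL-6 is known to induce in liver (chromosome 14), had 20.7 and 45.8 FPKM in KO, against 22.6 and 25.2 FPKM in WT. KO replicate 2 was 1.92 times the WT mean and KO replicate 1 was 0.867 times the WT mean. Its main transcript, NM_001135151, had 16.0 and 38.5 FPKM in KO, against 18.8 and 19.5 FPKM in WT. The other 2 transcripts were also highest in KO replicate 2, NM_001135152 at 4.79 FPKM and NM_144808 at 2.46 FPKM.

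Across the 10 genes, KO replicate 2 was the highest library for 5 (Slc31a1, Cp, Mt1, Mt2 and Slc39a14), and it was the highest for 31.6% of all genes. By mean level in KO the order was Cp (340 FPKM), Mt1 (154), Atox1 (148), Ccs (146), Mt2 (119), Slc31a1 (47.5), Slc39a14 (33.2), Slc30a10 (14.0), Slc30a1 (4.81) and Atp7b (3.81). Mt1 and Mt2 stand there through 1 library, and each neighbour from Cp down to Slc39a14 overlapped with the next in the KO libraries, while Slc39a14, Slc30a10, Slc30a1 and Atp7b were separate. In WT it was Cp (322 FPKM), Atox1 (301), Ccs (153), Slc31a1 (45.0), Slc39a14 (23.9), Mt1 (15.2), Slc30a10 (14.4), Slc30a1 (6.03), Atp7b (4.43) and Mt2 (3.52). In that WT order the values of Cp and Atox1 overlapped, as did those of Mt1 and Slc30a10, and all other neighbours were separate in both WT libraries.

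Of the wider copper and zinc machinery, 61 further genes were listed, 60 of them were in the table and 36 were measured at a mean of at least 1 FPKM. limma called none of the 36, against 0.0713% of all genes, and 4 had an unadjusted p under 0.05, against 7.75% of all genes. Their median log2 difference was 0.07, against 0.02 over all genes. Both KO values were higher than both WT values for 10 and lower for 5 of the 36, against 22.4% and 16.4% of all genes.

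None of the 4 passed the adjusted threshold. Of these, Slc31a2, a relative of the copper importer, had 5.33 FPKM in each KO library, against 4.06 and 4.23 FPKM in WT (limma adjusted p = 0.57). Cox11, which delivers copper to cytochrome oxidase, had 5.39 and 4.29 FPKM in KO, against 6.52 and 6.19 FPKM in WT (limma adjusted p = 0.625). Loxl4, a copper-dependent lysyl oxidase, had 4.16 and 3.26 FPKM in KO, against 2.93 and 2.28 FPKM in WT (limma adjusted p = 0.625). Slc39a3, a zinc importer, had 3.12 and 2.98 FPKM in KO, against 2.21 and 2.38 FPKM in WT (limma adjusted p = 0.592). Each of the 4 was separate between the groups, with log2 differences of 0.30, −0.34, 0.38 and 0.30.

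The copper enzymes and metalloreductases are part of these 36 genes, so their lack of calls is no further result. Of 15 listed copper enzymes only 4 were measured, and not all listed metalloreductases were. limma called none of those measured, against 0.0713% of all genes. Sod1, which receives copper from CCS, had 1921 and 1687 FPKM in KO, against 1721 and 1620 FPKM in WT. Sod3, the extracellular enzyme whose copper is thought to come by way of ATOX1 and a copper pump, had 11.3 and 14.7 FPKM in KO, against 8.93 and 10.5 FPKM in WT (limma adjusted p = 0.644). Steap4, a metalloreductase for iron and copper, had 40.9 and 172 FPKM in KO, against 39.5 and 44.8 FPKM in WT (limma adjusted p = 0.741). Like Mt1, Steap4 was high in KO replicate 2 alone, and it was the only one of the 36 at least 2-fold from the WT mean in either KO library. Steap4 is also in the acute phase list below and is counted there again.

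Among zinc transporters, Slc30a5 of the secretory pathway had 12.1 and 19.2 FPKM in KO, against 11.8 and 12.6 FPKM in WT (limma adjusted p = 0.774). Slc39a1 had 31.8 and 42.6 FPKM in KO, against 28.1 and 32.4 FPKM in WT (limma adjusted p = 0.733). Mtf1, the gene of the zinc sensor itself, had 2.92 and 3.31 FPKM in KO, against 2.70 and 2.58 FPKM in WT (limma adjusted p = 0.747). Of the other metallothioneins, Mt4 was listed at 0 in every library, and Mt3 at 0 in all but WT replicate 1, where it had 0.11 FPKM.

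Other gene lists were also high in KO replicate 2, the library with high metallothioneins. Of 27 measured acute phase genes all 27 were highest in that library, as were 31.6% of all genes, and 12 of them were at least 2-fold above the WT mean there, as were 0.692% of all genes. These 27 include Cd14, which reached a mean of 1 FPKM only through KO. The summed level of the list was 14103 and 35420 FPKM in KO, against 16285 and 20529 FPKM in WT. From the WT mean, the median gene differed by −0.38 in KO replicate 1 and by 0.89 in KO replicate 2. Cebpb, an inflammation-responsive transcription factor gene, had 72.0 and 128 FPKM in KO, against 45.9 and 53.5 FPKM in WT (limma adjusted p = 0.484). Unlike the median gene, Cebpb was thus higher in KO replicate 1 too. Only 4 of the 27, Cebpb among them, had both KO values above both WT values, against 22.4% of all genes.

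Of 12 measured glucocorticoid-induced genes, 11 were highest in KO replicate 2, as were 31.6% of all genes. The sum was 705 and 2193 FPKM in KO, against 670 and 891 FPKM in WT, and most of it was Pck1 and Tat. Pck1 had 229 and 994 FPKM in KO, against 170 and 300 FPKM in WT. Tat had 290 and 715 FPKM in KO, against 319 and 400 FPKM in WT. The libraries' median differences from the WT mean were −0.01 for KO replicate 1 and 0.97 for KO replicate 2. Fkbp5, a direct target of the glucocorticoid receptor, had 5.32 and 5.65 FPKM in KO, against 4.43 and 4.17 FPKM in WT (limma adjusted p = 0.595). Tsc22d3, which encodes GILZ, had 65.2 and 82.1 FPKM in KO, against 38.7 and 57.1 FPKM in WT (limma adjusted p = 0.57). Fkbp5, Tsc22d3, Cdkn1a and Per1 were above both WT libraries in KO replicate 1 too, whereas Igfbp1, Lcn2, Sgk1, Tat and Zbtb16 were below both WT libraries there. Igfbp1, for one, had 38.1 and 122 FPKM in KO, against 71.3 and 55.8 FPKM in WT. The list thus had no common direction in KO replicate 1. limma called none of the genes of either list, against 0.0713% of all genes. An unadjusted p under 0.05 was found for 2 of the 27 acute phase and 4 of the 12 glucocorticoid-induced genes, against 7.75% of all genes. Per1 is among these 4 glucocorticoid-induced genes, but it reached a mean of 1 FPKM only through KO, so it says nothing of the list. It is also counted among the 11 that were highest in KO replicate 2. It had 1.22 and 2.24 FPKM in KO, against 0.47 and 0.79 FPKM in WT. Cd14, of the acute phase list, also reached that mean only through KO. It had 1.05 and 1.67 FPKM in KO, against 0.91 and 0.88 FPKM in WT. Lcn2 is in both lists.

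**Figure D3:**
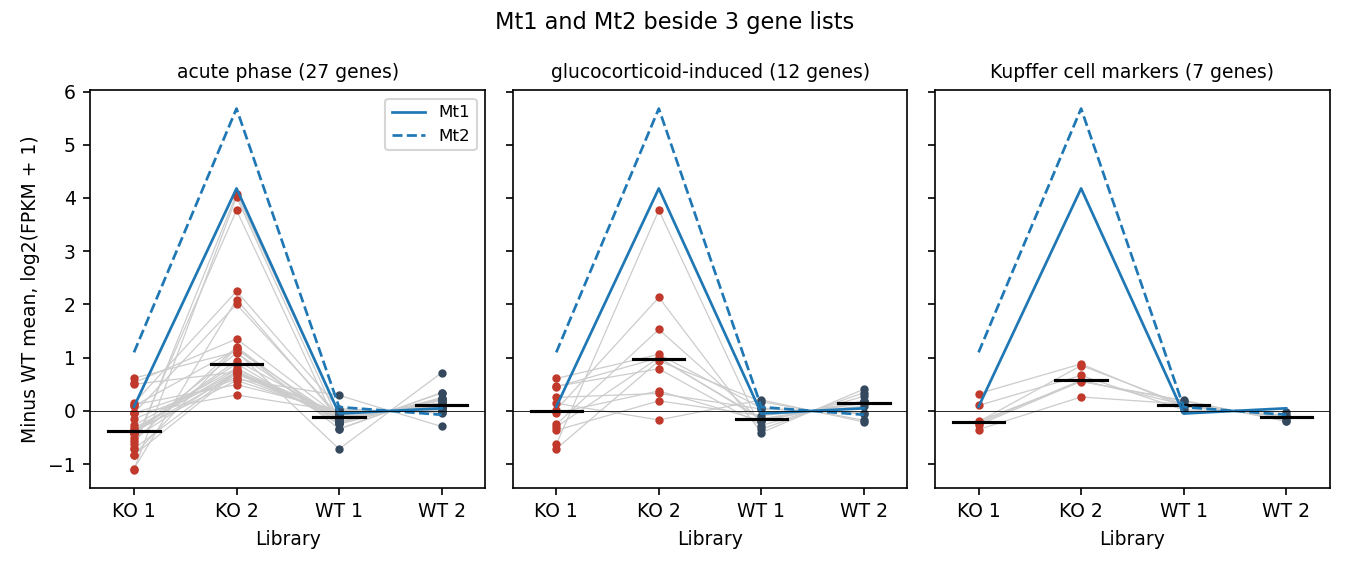
Difference from the WT mean in log2(FPKM + 1) in each library for genes of 3 lists (points, with black bars for the list median and a thin line per gene), with Mt1 and Mt2 as blue lines. All 27 acute phase genes, 11 of 12 glucocorticoid-induced genes and all 7 Kupffer cell markers are highest in KO replicate 2, where Mt1 and Mt2 lie at 4.18 and 5.68. Cd14 and Per1, included here, reached a mean of 1 FPKM only through KO.

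Markers of some other cells were high in that library and those of others were not. All 7 measured Kupffer cell markers were highest in KO replicate 2, as were 31.6% of all genes. Their sums were 85.3 and 146 FPKM in KO, against 103 and 87.0 FPKM in WT. The 6 neutrophil markers in the table summed to 6.67 and 24.7 FPKM in KO, against 9.28 and 12.2 FPKM in WT. Only 2 of them, S100a8 and S100a9, reached a mean of 1 FPKM, and the sum was mostly theirs. Retnlg, Ngp and Mpo had at most 0.72, 0.05 and 0.04 FPKM in any library, and Camp was listed at 0 in all libraries. The sum thus says little of the neutrophil list as a whole. Of the 5 adipocyte markers only Cfd reached a mean of 1 FPKM, and it did so through the KO libraries, so it says nothing of the list. It had 3.83 and 32.1 FPKM in KO, against 0.44 and 0.12 FPKM in WT (limma adjusted p = 0.406), while Plin1 and Adipoq had at most 0.07 and 0.17 FPKM in any library and Lep was listed at 0 throughout. All 5 measured sinusoidal endothelial markers were highest in KO replicate 2, but their median log2 difference from the WT mean there was only 0.11. Their sums were 59.3 and 70.5 FPKM in KO, against 53.9 and 58.2 FPKM in WT. Of 5 stellate cell markers 2 were highest there, with sums of 55.9 and 57.4 FPKM in KO, against 46.6 and 51.9 FPKM in WT. Of 3 measured cholangiocyte markers 0 were. Among them, Krt19 reached a mean of 1 FPKM only through KO, so it says nothing of the list. It had 2.23 and 1.28 FPKM in KO, against 0.89 and 0.86 FPKM in WT. The cholangiocyte sum of 50.2 and 41.7 FPKM in KO, against 25.4 and 23.5 FPKM in WT, was mostly Spp1, with 45.5 and 37.0 FPKM in KO, against 21.3 and 20.2 FPKM in WT (limma adjusted p = 0.136), while Sox9 overlapped between the groups. The part of these lists and of these cells in the metallothionein values was not tested.

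The nearest patterns over the 4 libraries were measured as the Euclidean distance between values of log2(FPKM + 1) minus the WT mean. Measured genes were searched, with symbols of the Gm or Rik form left out. For Mt1 the 5 nearest were Snora16a (0.551), Saa2 (0.792), Lcn2 (0.92), Saa1 (1.22) and Cxcl1 (1.3). Saa1, serum amyloid A, had 34.7 and 1244 FPKM in KO, against 65.8 and 87.3 FPKM in WT, and Lcn2, lipocalin 2, had 7.19 and 172 FPKM in KO, against 8.99 and 15.1 FPKM in WT. In KO replicate 1 Saa1 and Lcn2 were below both WT libraries, which Mt1 and Mt2 were not. Cxcl1, a neutrophil chemokine gene, had 2.60 and 24.3 FPKM in KO, against 2.33 and 2.55 FPKM in WT.

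For Mt2 the nearest were Cfd (1.29), Mir6340 (1.52), Mt1 (1.82), Snora16a (2.32) and Mir703 (2.34). Snora16a, Mir6340 and Mir703 are short RNAs listed at 0 in 3 of the 4 libraries, so their nearness rests on 1 value. For Atox1 the nearest were Bbc3 (0.194), Rps4l (0.23), Arrdc3 (0.239), Rnf125 (0.279) and Cyp3a59 (0.286), on 5 different chromosomes, none of them chromosome 11. Bbc3, which encodes the cell death protein PUMA, had 2.33 and 2.60 FPKM in KO, against 4.88 and 6.21 FPKM in WT.

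Atox1 lies 4.74 Mb from Srebf1, the targeted gene, on the same chromosome. Its direct neighbours did not all share its lower level. Sparc, 26.6 kb away, had 25.5 and 28.7 FPKM in KO, against 18.0 and 17.0 FPKM in WT (limma adjusted p = 0.246). G3bp1, 8.45 kb away on the other side, had 23.9 and 22.6 FPKM in KO, against 24.0 and 20.0 FPKM in WT (limma adjusted p = 0.901). Gm2a had 13.5 and 14.0 FPKM in KO, against 17.8 and 17.5 FPKM in WT (limma adjusted p = 0.49), and Anxa6 had 37.5 and 37.1 FPKM in KO, against 52.2 and 49.8 FPKM in WT (limma adjusted p = 0.371). Slc36a1, 210 kb away, had 7.42 and 7.81 FPKM in KO, against 8.27 and 8.09 FPKM in WT (limma adjusted p = 0.863). Sparc was thus higher, Slc36a1, Gm2a and Anxa6 lower and G3bp1 overlapping.

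Within 2 Mb on either side of Atox1, a span chosen with results known, 18 other genes were measured. Only G3bp1 lay on the side towards Srebf1, and all the others lay on the side away from it. Of the 18 genes, 9 had both KO values below both WT values and 4 had both above, against 16.4% and 22.4% of all genes. Their median log2 difference was −0.11. Lyrm7, a mitochondrial assembly factor gene, was singled out after its values were seen. It had 0.53 and 0.34 FPKM in KO, against 2.48 and 1.57 FPKM in WT, and reached a mean of 1 FPKM only through WT. The part of the position on chromosome 11 in the Atox1 difference was not tested.

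**Figure D4:**
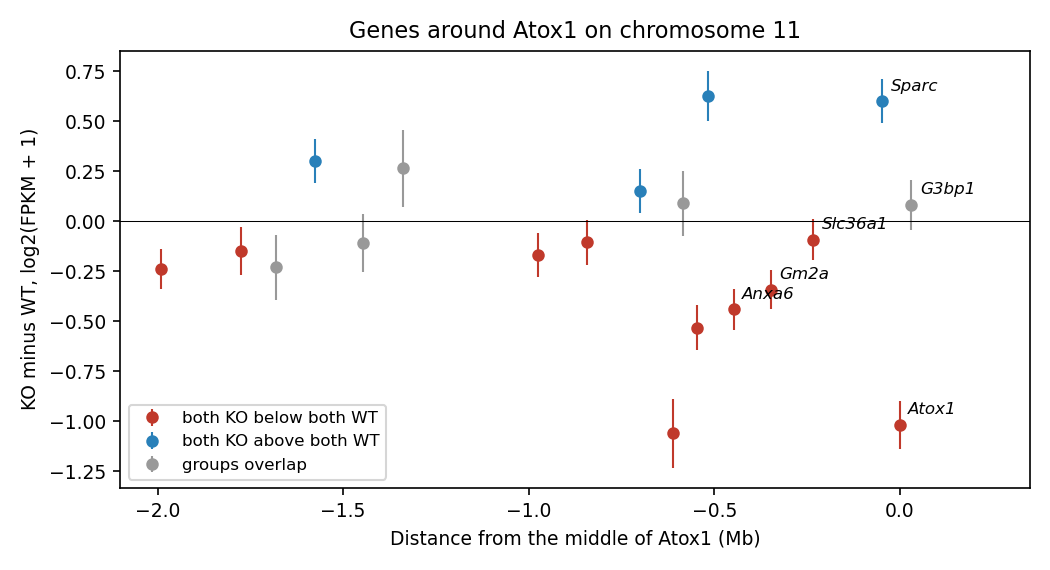
Log2 difference of KO minus WT (with its SE as bars) of Atox1 and 18 other measured genes by distance from the middle of Atox1 in Mb, coloured by whether both KO values are below (red) or above (blue) both WT values or overlap (grey). Atox1 lies at −1.02, Lyrm7 at −1.06, Sparc at 0.60 and G3bp1 at 0.08.

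Around the metallothionein pair, no measured neighbour listed here differed as much. Nup93, 34.2 kb from Mt1, had 3.16 and 2.28 FPKM in KO, against 2.77 and 2.51 FPKM in WT (limma adjusted p = 0.984). Herpud1, a gene of the ER stress response 206 kb away, had 110.3 and 257 FPKM in KO, against 114 and 136 FPKM in WT (limma adjusted p = 0.82). On the other side Nudt21 and Ogfod1 overlapped between the groups, with log2 differences of −0.03 and −0.02. Herpud1 was thus the neighbour that was high in KO replicate 2, by less than either metallothionein.

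Iron genes were set beside copper because ceruloplasmin and ZIP14 also act on iron. Hamp, the gene of the iron hormone hepcidin, had 614 and 867 FPKM in KO, against 243 and 658 FPKM in WT (limma adjusted p = 0.701), with overlap. Slc40a1, the iron exporter ferroportin, had 20.7 and 20.4 FPKM in KO, against 24.5 and 22.3 FPKM in WT (limma adjusted p = 0.733). The 11 measured iron genes include Slc39a14, described above, for which no p or call is given. limma called none of the others, against 0.0713% of all genes, and none had an unadjusted p under 0.05, against 7.75% of all genes.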

How the data were processed

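Liver RNA was sequenced in 2 KO and 2 WT libraries, grouped by sample title. The authors deposited a table of FPKM, per the file headers, with a row for each RefSeq transcript and a column for each library. Bowtie, TopHat and mm10 are named, without versions, in the submitters' processing notes. How FPKM were computed, from which annotation, and whether strand was used is not given in the sources used here. Of 33170 transcript rows, 8874 were at 0 in all libraries, albumin among them, so a 0 is given only as listed. FPKM of a gene depend on how fragments were shared among its transcripts and with similar genes.

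Rows were summed per gene number (23920 genes). Genes with a mean of at least 1 FPKM were tested with limma 3.58.1 (R 4.3.3, trend) on log2(FPKM + 1), which understates changes of low genes, with Benjamini-Hochberg adjustment over 9820 genes and a threshold of 0.05. With 2 libraries against 2, an exact two-sided permutation test cannot go below p = 0.333, so none was used. The test was first run on simulated data. Low values of single-transcript genes, with GENCODE lengths, gave the implied depths. Only 49.3% to 53.2% of them lay within 0.1 of a whole fragment, so no count test was run, and the fragment numbers are approximate.

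The 10 genes, the gene lists and the tests were chosen with earlier results of these data known. Genes named were the 10, Srebf1, up to 4 of each list with the smallest p, the 5 nearest patterns to Atox1, Mt1 and Mt2, and the 4 nearest measured genes on either side of each. A part of these is printed. Outside that rule, and chosen after their values were seen, are Lyrm7, Igfbp1, Pck1, Mt3 and Mt4. So are the other hepatocyte, glucocorticoid-induced and cell type genes named for their direction or for a value at or near 0. Sco2, Adgre1 and Ly6g did not match a symbol of the table and were not used here (Adgre1 was read under its older symbol Emr1). Promoter windows are from RefSeq (GRCm38.p6), matched by gene number. The alternatives tried were other pseudocounts (0.1, 0.5), a filter at 5 FPKM or none, quantile and upper-quartile normalization, transcripts kept apart, limma without trend or with a robust prior, a block on replicate number, leaving out single libraries, and 1.5 in place of 2 as the fold. Figures were drawn with matplotlib 3.10.9 in python 3.11.15.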

Additional observations from a re-analysis of the deposited data

How the results depend on the processing

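The log2 difference of Atox1 ran from −1.04 to −1.02 over the processing alternatives and from −1.10 to −0.94 with 1 library left out. That of Mt1 ran from 2.11 to 2.17 and, with 1 library left out, was 0.08 at the lowest (KO replicate 2 absent) and 4.18 at the highest (KO replicate 1 absent). That of Mt2 ran from 3.37 to 3.64 and, with the same libraries left out, was 1.10 at the lowest and 5.68 at the highest. Without KO replicate 2 the sign turned for Ccs (0.04), Slc31a1 (−0.07), Cp (−0.36), Slc30a10 (0.09) and Slc39a14 (−0.20), and without WT replicate 1 for Cp (−0.07) and Slc30a10 (0.12).

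The 7 calls over all genes became 11 with a pseudocount of 0.1, 0 without a filter, 3 with a minimum of 5 FPKM, 4 with quantile normalization and 15 with a robust prior. The split was 1 higher and 6 lower in KO as reported, 0 and 6 with upper-quartile scaling or without the trend, 0 and 5 with unsummed rows, 0 and 4 with quantile normalization, 0 and 3 with the 5 FPKM minimum, 5 and 10 with the robust prior and 4 and 15 with the replicate block. With 1 library left out they ran from 1 (without WT replicate 1) to 306 (without KO replicate 1), with 4 without WT replicate 2 and 117 without KO replicate 2. With a lone KO library, that library is assumed to vary like the WT pair. The replicate block gave 19 calls. The numbers are shared only as numbers, and the correlation of KO replicate 1 minus 2 with WT replicate 1 minus 2 was 0.167 over genes.

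The calls among the 36 further copper and zinc genes stayed at 0, except 1 (Steap4) without KO replicate 1, so they ran from 0 to 1 with 1 library left out. Genes past 2-fold in KO replicate 1 numbered 120 with a pseudocount of 0.1, 186 with unsummed rows and 269 past 1.5-fold, against 73. In KO replicate 2 they numbered 215, 249 and 495, against 133. Causes of these changes were not tested. With 2 libraries a group, and a KO spread of Mt1 and Mt2 above their KO means, the KO levels of both are known only per library.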
